A study of Mus musculus with 12 samples.

Results

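The cytosolic ribosomal protein genes were examined in YY1 ChIP-seq peak lists from bone marrow. Members were the protein-coding genes of GENCODE M21 on chromosomes 1 to 19 whose symbol is that of a protein of the large (Rpl) or small (Rps) cytosolic subunit, together with Rplp0, Rplp1, Rplp2 and Rpsa. The rule uses names alone and no measured value, but it was chosen with earlier results of these data known. It gave 79 of the 20807 autosomal protein-coding genes, 48 named for the large subunit and 31 for the small one (Rpsa among them), spread over 18 chromosomes. Ribosomal protein genes of chromosome X (Rpl10, Rpl36a, Rpl39 and Rps4x) are not members.

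The cytosolic ribosome joins a large and a small subunit, each an RNA core covered by proteins that nearly every growing cell makes in equal amounts. Their mRNAs typically begin with a tract of pyrimidines through which the mTOR pathway sets their translation, and many of the genes carry small nucleolar RNAs (snoRNAs) in their introns. YY1, a transcription factor with zinc fingers, binds at many promoters, with ATGGC at the heart of its motif. Blood formation is sensitive to the supply of these proteins, and mutations in several of the genes cause Diamond-Blackfan anaemia, a failure of red cell production.

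Libraries came from lineage-negative (Lin-) bone marrow cells, the fraction left once cells bearing markers of mature blood lineages are depleted, of female mice aged 3 months on a 129Sv4/Jae and B6 background. There were 2 wild-type (WT) and 2 XistΔ/Δ libraries. The XistΔ/Δ mice carried the floxed Xist alleles (2lox/2lox) and Vav-iCre, a Cre recombinase under control of sequences of the blood gene Vav1, so that Xist, the long RNA behind X inactivation, was removed in blood cells. Whether WT mice carried the transgene is not in the labels. The authors call the replicates biological, but it is not stated that the libraries came from separate animals. The p-values therefore measure only the spread between these libraries. The other 8 samples of the series (H3K27me3 and H3K4me3, marks of histone H3) were not analysed here.

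Depth differed between replicate numbers more than between genotypes. Replicate 1 libraries held 24.9 M (WT) and 23.1 M (XistΔ/Δ) tags, the aligned reads counted by the peak caller, and replicate 2 libraries 50.0 M and 59.5 M. The lists held 9553 and 15933 peaks for the WT libraries and 10075 and 18113 for the XistΔ/Δ libraries (replicate 1, then replicate 2, as throughout). Over the main start of Xist, the WT libraries had peaks of 3083 and 3222 bp and the XistΔ/Δ libraries had none, as their labels state. Peaks in all 4 libraries were found at 5 of 8 stem and progenitor genes (Runx1, Tal1, Myb, Lmo2 and Ptprc, but not Kit, Cd34 or Gata2) and at 0 of 7 genes of mature lineages, although a peak of a transcription factor does not measure expression. The lists give no tag count per peak, and their score is 1 for every peak, so peaks could be compared by presence, width and position and not by strength.

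Sequence around the member starts was read first from the reference genome (GRCm38, the build mm10 of the files). The main start of a gene was the first base of its principal transcript in the annotation, and positions are counted from it in the direction of transcription. The YY1 core AANATGGC, searched on both strands, lay within 250 bp of the main start in 18 of 79 members (22.8%) against 2114 of all 20807 genes (10.2%). The longer form AAGATGGCG, which contains the core, lay there in 10 members (12.7%) against 644 of all genes (3.10%). A match is a description of letters and not proof of a binding site.

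Matches to the longer form, 10 of the 11, are shown because the genes that hold them had wider peaks than the other members in the median. Each is given with 30 bases on the strand of its gene, with the 9 matching letters in capitals. Capitals reading AAGATGGCG are a match on the strand of the gene, and CGCCATCTT a match on the other strand.
Rpl13a (chr7:45128698-45128727, minus strand): gcggctgccgAAGATGGCGgaggggcaggt
Rps3 (chr7:99483605-99483634, minus strand): gcgcggctgcAAGATGGCGgtgcagatttc
Rpl23a (chr11:78183527-78183556, minus strand): cttttcagccAAGATGGCGccgaaagcgaa
Rpl7l1 (chr17:46782616-46782645, minus strand): aagcaccggaAAGATGGCGgaggaagggtg
Rps27, upstream match (chr3:90213703-90213732, minus strand): agaccttccgAAGATGGCGaagcaacacgg
Rps27, downstream match (chr3:90213417-90213446, minus strand): gagaggagatAAGATGGCGgcccagctacg
Rpl18 (chr7:45715437-45715466, plus strand): aagcttatccCGCCATCTTtgttgaggtca
Rpl24 (chr16:55966388-55966417, plus strand): tctttctcttCGCCATCTTtaccccggcag
Rpl35a (chr16:33056479-33056508, plus strand): ttcctctttcCGCCATCTTggcgcctgtgg
Rpl41 (chr10:128549082-128549111, minus strand): tcggtcttagCGCCATCTTccttggttagt

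Of the 11 matches, 9 began after the main start and 7 were on the strand of the gene. In 5 genes, Rpl13a, Rps3, Rpl23a and Rpl7l1 among them, the ATG inside the match was the annotated start codon of the main transcript, so the letters of the YY1 core and of the translation start are the same there. All 11 matches lay inside a YY1 peak in all 4 libraries. Of the 22 matches to the shorter core, 6 held the start codon and 21 lay inside a peak in all 4 libraries. The exception was the match 97 bp upstream of Rpl24, which was inside a peak in 3. The search kept within 250 bp of main starts, and 73 of 79 main starts were themselves inside a peak in all 4 libraries. A place inside a peak therefore does not set these matches apart from other letters near the starts.

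Other letters set the member promoters apart from the average gene to different degrees. CCGGAAG, the core bound by ETS factors, lay within 250 bp of the main start in 32 members (40.5%) against 15.0% of all genes. GGGCGG, bound by SP1-like factors, was found in 58 members (73.4%) against 55.5%. A TATAAA box in the 50 bp before the start was found in 0 of 79 members against 3.39% of all genes. In Rpl30 a TATAAA straddled the far edge of that window and was not counted. Median GC content over 250 bp on each side was 59.4% in members and 58.2% in all genes, while the ratio of observed to expected CpG was 0.885 against 0.629. A C at the first base followed by at least 4 pyrimidines, the mark of a terminal oligopyrimidine mRNA, was met at the annotated main start of only 8 members (10.1%) against 2.3% of all genes. Annotated starts are not exact: of 59 members with a RefSeq start in the table used, 40 had it within 50 bp of the main start, and it lay 13.0 bp downstream in the median.

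Stretches of 100 bases just before the main start follow for members that stand at the ends of the results below, with CCGGAAG or its complement in capitals. Rpl13a and Rps18 were among the members with the widest peaks, Rpl29 and Rps21 among those with the narrowest, and Rpl10l had no peak.
Rpl13a (chr7:45128762-45128861, minus strand): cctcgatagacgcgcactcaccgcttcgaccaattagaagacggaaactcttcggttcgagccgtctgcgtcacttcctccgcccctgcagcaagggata
Rps18 (chr17:33955678-33955777, minus strand): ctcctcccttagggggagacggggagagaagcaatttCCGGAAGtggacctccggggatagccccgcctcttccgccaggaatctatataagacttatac
Rpl29 (chr9:106429354-106429453, plus strand): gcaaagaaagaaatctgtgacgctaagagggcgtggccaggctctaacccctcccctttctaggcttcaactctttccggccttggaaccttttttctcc
Rps21 (chr2:180257277-180257376, plus strand): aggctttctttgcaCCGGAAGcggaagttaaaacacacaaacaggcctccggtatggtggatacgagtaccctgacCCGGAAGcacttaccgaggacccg
Rpl10l (chr12:66284402-66284501, minus strand): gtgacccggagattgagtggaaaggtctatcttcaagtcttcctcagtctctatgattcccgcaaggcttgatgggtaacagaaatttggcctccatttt
The ETS core occurs here once before Rps18, with its wide peaks, and 2 times before Rps21, with its narrow ones.

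Almost every member had a YY1 peak. A peak within 3 kb of an annotated transcript start was present at 75 of 79 members (94.9%) in WT replicate 1, 77 (97.5%) in WT replicate 2 and 76 (96.2%) in each XistΔ/Δ library. Of all autosomal protein-coding genes, 40.8% and 49.0% had one in the WT libraries and 40.7% and 50.3% in the XistΔ/Δ libraries. The share of all genes with a peak was higher in the deeper libraries of each genotype, whereas the members were near their full number already in the shallow ones. The mean was 76.0 ± 1.41 members (SD, n = 2) for WT, against 76.0 ± 0 (SD, n = 2) for XistΔ/Δ (two-sided exact permutation test over 4 libraries, p = 1, where 0.33 is the smallest value possible).

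**Figure D1:**
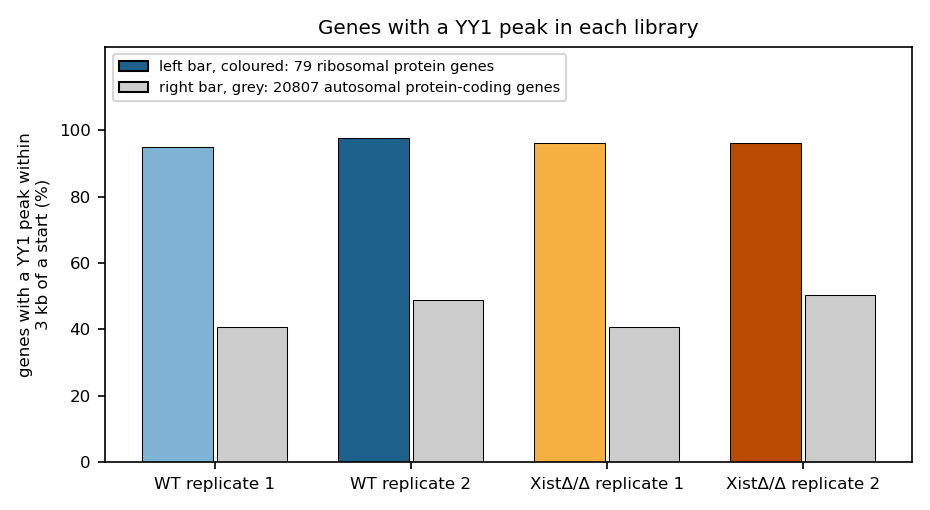
Percent of genes (vertical axis) with a YY1 peak within 3 kb of a transcript start in each of the 4 libraries, without error bars since each bar is a count in 1 library. The coloured bars of the 79 ribosomal protein genes stand between 94.9% and 97.5%, and the grey bars of the 20807 autosomal protein-coding genes between 40.7% and 50.3%.

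A peak in all 4 libraries was found at 75 of 79 members (94.9%), where 37.1% of all genes had one. All 31 members of the small subunit and 44 of 48 of the large subunit were among them. In all 75 the peaks of the 4 libraries shared at least 1 bp, and in 62 they overlapped reciprocally by at least 50% in every pair. The main start itself lay inside a peak in 74, 75, 74 and 75 members in WT replicates 1 and 2 and XistΔ/Δ replicates 1 and 2, and in all 4 libraries in 73, against 30.8% of all genes.

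The 4 members without a peak in every library were of 2 kinds. Rpl10l and Rpl39l had no peak in any library, as did 48.3% of all genes. They are testis-biased paralogs of the X-linked genes Rpl10 and Rpl39. Rpl3l, the paralog of Rpl3 that striated muscle uses, had a single peak of 628 bp in WT replicate 2, with its midpoint at -3275.5 bp from the start. It therefore lay at the edge of the window and not over the start.

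Rplp1, an acidic protein of the stalk that recruits elongation factors, lacked a peak in WT replicate 1, one of the shallow libraries. It had peaks of 1041 bp in WT replicate 2, 651 bp in XistΔ/Δ replicate 1 and 915 bp in XistΔ/Δ replicate 2, all over its start, with midpoints at -61, -23 and -81 bp. Rplp0, the base of the stalk, had peaks of 763, 1048, 628 and 1219 bp in WT replicates 1 and 2 and XistΔ/Δ replicates 1 and 2. Rplp2, the partner of Rplp1, had wider ones of 1181, 1526, 1133 and 1557 bp in the same order. Each stalk gene had wider peaks in the replicate 2 libraries than in the replicate 1 library of the same genotype, with Rplp1 in WT not comparable.

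The other paralogs with the letter l in their names were not like Rpl10l, Rpl39l and Rpl3l. Rpl22l1, a relative of Rpl22, had peaks of 885, 1430, 907 and 1159 bp. Rpl7l1, a relative of Rpl7 with the longer YY1 core, had peaks of 1521, 1673, 1396 and 1939 bp, and Rps27l, a p53-inducible relative of Rps27, had peaks of 1413, 1526, 1202 and 1607 bp (WT replicates 1 and 2, then XistΔ/Δ replicates 1 and 2). Peaks of these 3 genes were thus present at the start in every library.

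Member peaks were also wide. The widest peak of a member had a median of 1157 and 1525 bp in the WT libraries and of 1048.5 and 1512.5 bp in the XistΔ/Δ libraries, against 1023.5, 1314, 902 and 1296 bp over all genes with a peak. Since peaks were wider in the replicate 2 libraries, which were also the deeper ones, width was turned into a percentile among the peaks of the same library that lie within 3 kb of any start. The median percentile of the members was 65.0 and 70.7 in the WT libraries and 68.2 and 72.8 in the XistΔ/Δ libraries, against 56.2, 61.4, 56.3 and 62.9 over all genes with a peak. Members exceeded all genes by between 8.75 and 11.9 points in each library, a difference of medians given without a test. Those genes include many without a peak in every library, unlike nearly all members. Among genes with a peak in all 4 libraries the gap was smaller. There the median of the mean percentile over the 4 libraries was 69.3 in 75 members and 64.2 in all 7709 genes. With every list shortened to its first 9553 peaks, the length of the shortest list, the medians of the members were 65.0 and 58.6 in the WT libraries and 66.9 and 58.5 in the XistΔ/Δ libraries. The excess over all genes was then 8.75, 3.89, 11.4 and 4.52 points, so it was smaller in the replicate 2 libraries with equal lists and above 0 in all 4.

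The members crowded above the middle of the range more than at its top. The 50th percentile was reached by 56 and 66 members in the WT libraries and by 57 and 69 in the XistΔ/Δ ones. The median over all genes with a peak was also above it, at 56.2, 61.4, 56.3 and 62.9. Reaching it is therefore not particular to the members. The 90th percentile was reached by 7, 8, 3 and 7 members, or 9.33%, 10.4%, 3.95% and 9.21% of those with a peak, while 12%, 13.3%, 11.6% and 13.9% of all genes with a peak reached it. The narrowest member peaks in each library measured 626, 628, 501 and 892 bp, and 501 bp is the most frequent width in the lists.

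The gene with the highest mean percentile over the 4 libraries was Rpl18, a protein of the large subunit, although Rpl13a was higher in both replicate 1 libraries. Its peaks measured 2097 and 4249 bp in the WT libraries and 1649 and 4266 bp in the XistΔ/Δ libraries (percentiles 93.2, 99.2, 91.4 and 99.4). In the shallow libraries 2 separate peaks were called within 3 kb of its starts and in the deep ones a single long one. Rpl13a, which also acts outside the ribosome in inflammatory translational control, had peaks of 2444, 2805, 1907 and 2733 bp (percentiles 96.4, 95.3, 95.2 and 95.6). It carries the longer YY1 core over its start codon.

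Rpl3, a core protein near the peptidyl transferase centre, had peaks of 2168, 2310, 1861 and 2430 bp, and its percentiles lay between 90.5 and 94.5. Rpl4, which lines the exit tunnel, had peaks of 1784, 2677, 1570 and 2139 bp. Rpl41, the smallest ribosomal protein, had peaks of 2287 and 2571 bp in the WT libraries and of 1095 and 2623 bp in the XistΔ/Δ libraries. The Rpl41 percentile was 71.5 in XistΔ/Δ replicate 1 and between 93.4 and 95.2 in the other 3 libraries. Rps18, Rpl7 and Rpl27a completed the 8 highest, with mean percentiles of 86.2, 85.7 and 85.6.

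At the low end of the members with a peak in all 4 libraries, Rpl29 had peaks of 891, 1028, 501 and 916 bp and a mean percentile of 35.3. Rpl31 had peaks of 626, 915, 776 and 1036 bp and a mean percentile of 37.1. Rps21 had peaks of 839, 1072, 501 and 1243 bp, so XistΔ/Δ replicate 1 held the most frequent width at both Rpl29 and Rps21. The other 5 of the lowest 8 among these members were Rpl35, Rplp0, Rpl37a, Rpl26 and Rps16, with mean percentiles between 40.6 and 46.7. The order of the members was alike between libraries: Spearman's rho of the percentiles across the 75 members was between 0.579 and 0.803 for the 6 pairs of libraries, as a description across genes that share these libraries. It was 0.794 and 0.579 for the pairs of WT and XistΔ/Δ libraries, and 0.756 and 0.803 for the pairs of replicate 1 and replicate 2. Over all 7709 genes with such peaks the 6 values lay between 0.742 and 0.869.

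**Figure D2:**
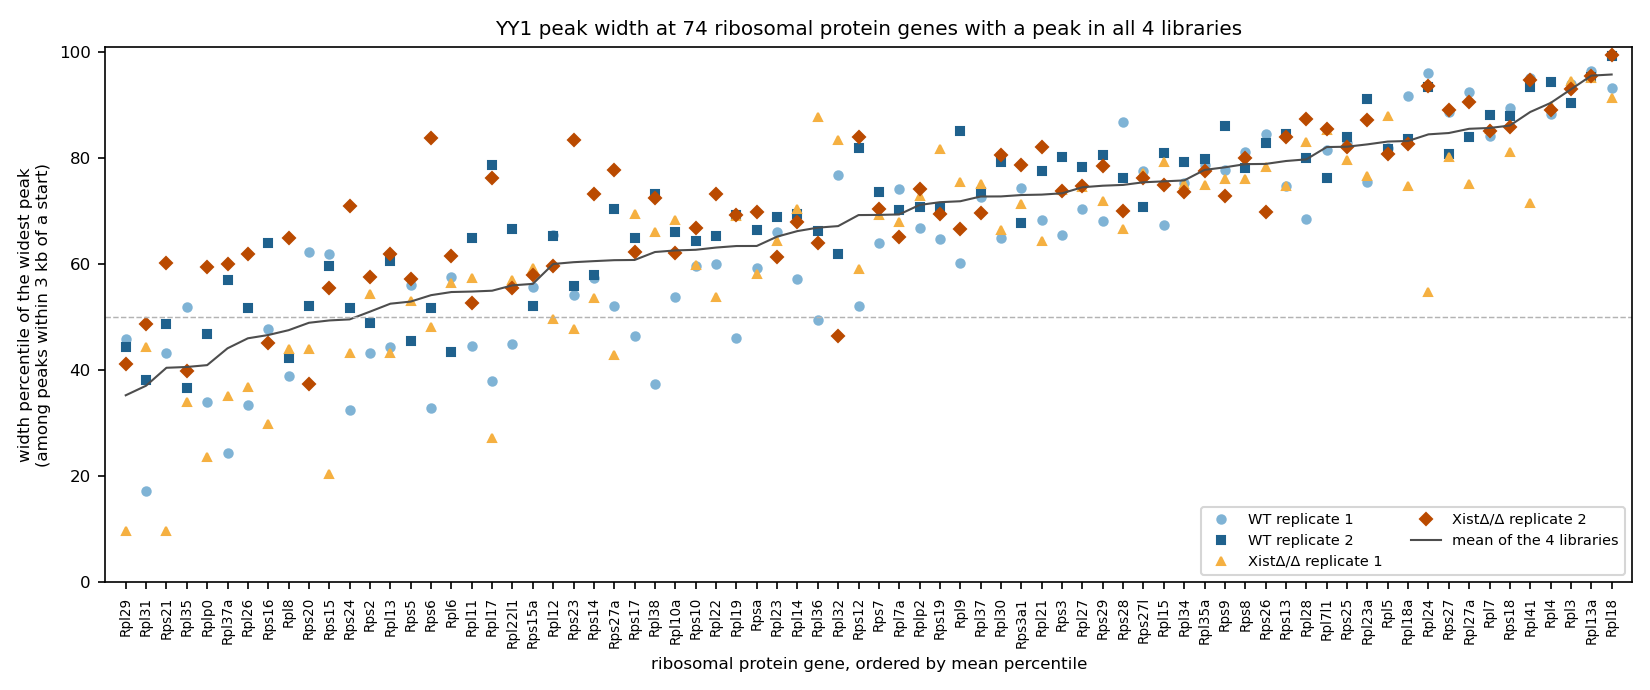
Width percentile (vertical axis) of the widest YY1 peak at 74 of the 75 members with a peak in all 4 libraries, ordered by their mean (line), with 1 symbol per library. Most values lie above the 50th percentile (dashed), as does the median over all genes with a peak in each library (not drawn). The symbols of Rpl13a lie close together while those of Rpl24 and Rpl41, also on the right, do not. The lowest values are 9.75 for Rpl29 and Rps21 in XistΔ/Δ replicate 1.

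Genes with the longer YY1 core had wider peaks. Among members with a peak in all 4 libraries, the mean percentile had a median of 83.6 in the 10 genes with AAGATGGCG (range 73.4 to 95.8) and of 65.2 in the 65 without it (range 35.3 to 93.0). The same contrast was seen over all autosomal genes with such peaks, with medians of 82.3 in 602 genes and 62.2 in 7107. For the shorter core the medians were 82.4 in 18 members and 63.4 in 57. These are descriptions across genes and carry no test.

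By library, the median percentile of members with and without the longer core was 85.1 against 60.2 in WT replicate 1, 92.3 against 69.0 in WT replicate 2, 75.8 against 66.2 in XistΔ/Δ replicate 1 and 91.4 against 69.9 in XistΔ/Δ replicate 2. The order was the same in each library and the gap least in XistΔ/Δ replicate 1. For Rpl23a and Rpl24 the widest peak in some libraries lay beyond the annotated end of the gene and did not cover the match. With the peak nearest to the main start, an alternative chosen after the data were seen, the medians with the longer core were 80.1, 80.6, 74.5 and 88.2 and those without it 60.2, 67.8, 66.2 and 69.9. Presence of a peak also went with the longer core over all genes: 93.5% of the 644 genes with it had a peak in all 4 libraries and 35.2% of those without it. Members without the core had such peaks in 65 of 69 cases (94.2%).

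**Figure D3:**
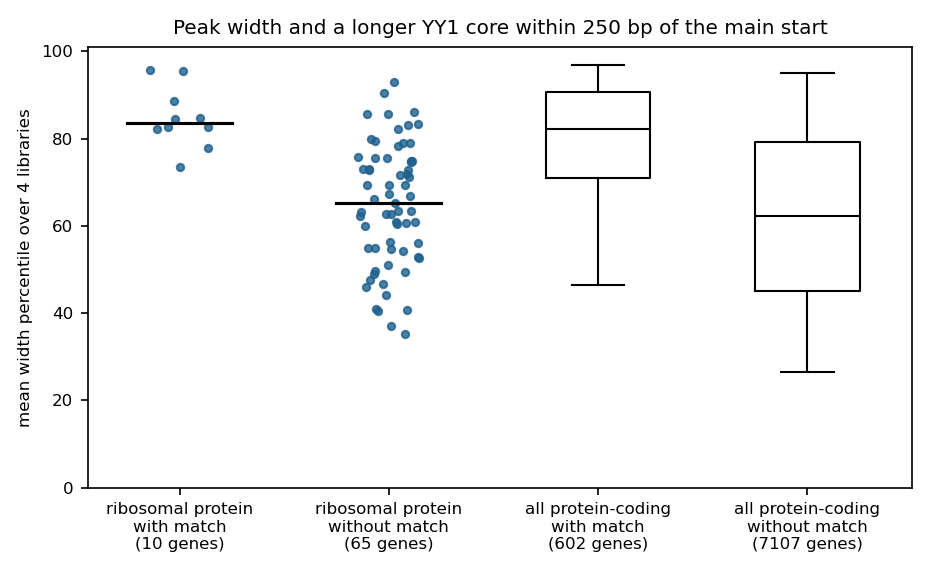
Mean width percentile over the 4 libraries (vertical axis) of genes with and without AAGATGGCG within 250 bp of the main start. Points are members with their median (bar), at 83.6 with and 65.2 without a match, and boxes show all autosomal protein-coding genes (median, quartiles, and whiskers from the 5th to the 95th percentile of genes), with medians of 82.3 and 62.2.

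The other letters did not sort members by width in this way. With and without CCGGAAG, the median of the mean percentile was 68.3 in 30 members and 69.4 in 45. With and without GGGCGG it was 65.7 in 56 members and 75 in 19, the lower value going with the match, whereas over all genes it was 64.8 with and 61.7 without.

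Measured from the main start, peaks at members sat a little inside the gene. The midpoint of the widest peak had a median of +191.5 and +171 bp from the main start in the WT libraries and of +83.75 and +138.25 bp in the XistΔ/Δ libraries. Measured on the peak nearest to the start, the medians were +194, +171, +90.5 and +142.75 bp, against +104.75, +85.5, +39 and +68.5 bp over all genes with a peak. The midpoint was downstream of the start in 78.7% and 77.9% of members in the WT libraries and in 69.7% and 73.7% in the XistΔ/Δ libraries, against 65.6%, 62.3%, 56.8% and 60.7% of all genes. Measured from whichever annotated start was nearest to the midpoint, member medians were 10 and 12 bp (WT) and 4.75 and -8.25 bp (XistΔ/Δ). Those over all genes were 24, 13.5, -1 and 7 bp. Choosing the nearest start makes these distances small, so they cannot show from which start the peaks are offset. Relative to the main start, the upstream edge was close to that of other genes, with medians of -376, -578, -394.5 and -582 bp (WT, then XistΔ/Δ) against -408, -562, -410 and -553 bp. The downstream edge reached farther, to +724, +913, +605 and +846 bp against +593, +730, +476 and +714 bp.

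The first exons of ribosomal protein genes are typically short, and many of these midpoints fell in the first intron of the main transcript: 52.0% and 45.5% of members in the WT libraries and 42.1% in each XistΔ/Δ library, against 23.6%, 24.3%, 16.1% and 21.9% of all genes. Midpoints in the first exon were fewer, 18.7% and 19.5% in the WT libraries and 23.7% in each XistΔ/Δ library, against 37.9%, 33.2%, 37.4% and 34.2%. A RefSeq start was at hand for 59 members. Relative to it, an alternative added later, their median midpoint was at 121.75 and 78.0 bp in the WT libraries and at 37.0 and 73.75 bp in the XistΔ/Δ libraries. Relative to the main start the same 59 genes gave 183.25, 138.5, 78.0 and 146.25 bp, which is farther downstream in each library.

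**Figure D4:**
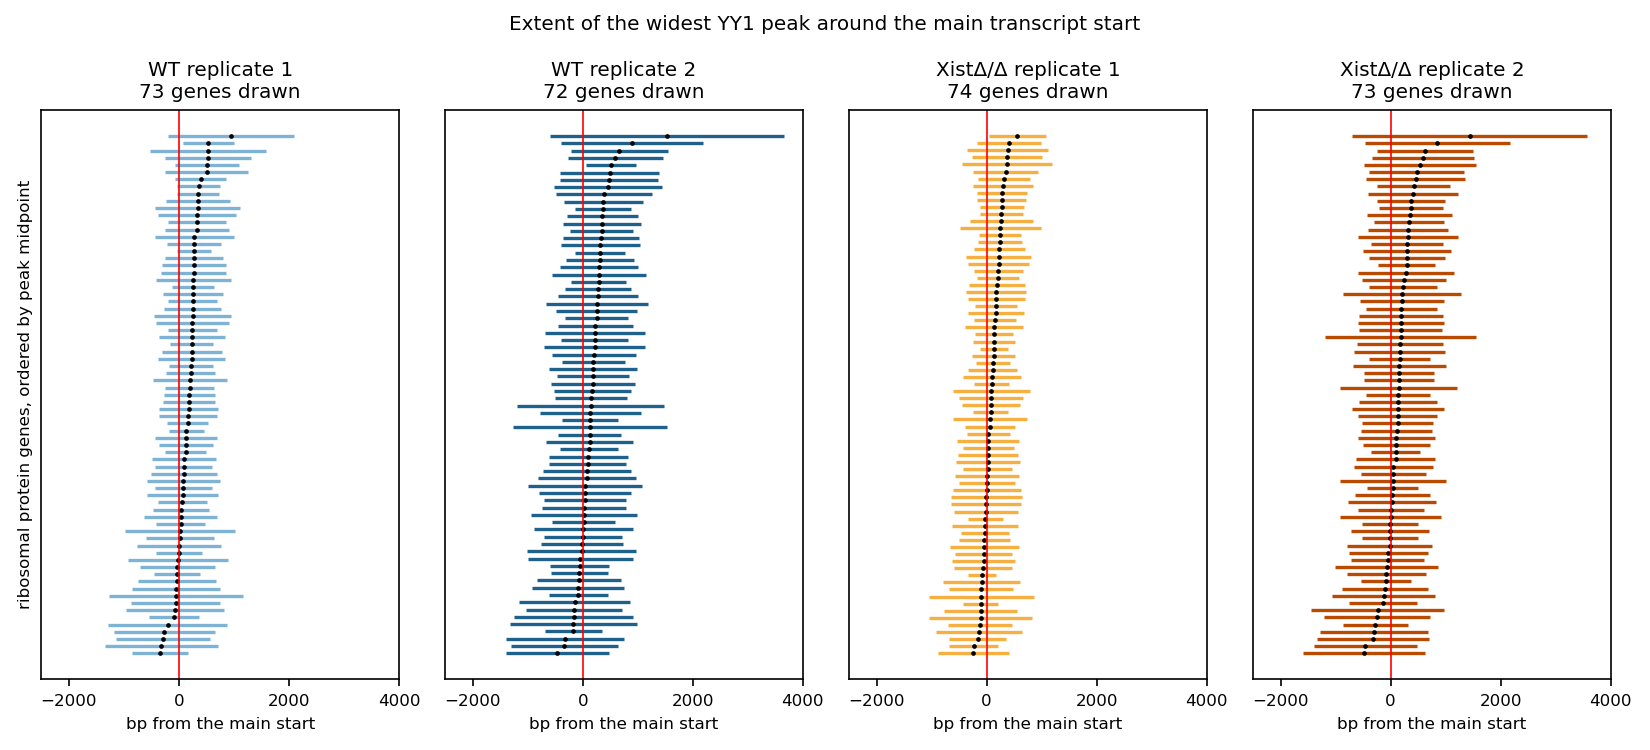
Extent of the widest YY1 peak (line) and its midpoint (black point) around the main start (red line, 0 bp) for each member, with 1 panel per library and genes ordered by midpoint within a panel. Nearly all peaks cover the start and most midpoints lie to its right, and 2, 5, 2 and 3 members whose widest peak had its midpoint more than 2000 bp away are not drawn.

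Over all members, the median midpoint was nearer to the main start in the XistΔ/Δ libraries than in the WT libraries, in a design too small for a call. The mean of the library medians was 181 ± 14.5 bp (SD, n = 2) for WT, against 111 ± 38.5 bp (SD, n = 2) for XistΔ/Δ, a difference of -70.3 bp, and both XistΔ/Δ libraries were below both WT libraries (two-sided exact permutation test, p = 0.33, the smallest the design allows). Within replicate numbers the difference was -107.75 bp in replicate 1 and -32.75 bp in replicate 2. With the start nearest to each midpoint in place of the main start it was -12.8 bp, though choosing that start makes the distances small. In the 59 members with a RefSeq start, measured from the main start, it was -105.25 bp in replicate 1 and 7.75 bp in replicate 2, so the direction in replicate 2 turned. In both replicate numbers the median over all genes with a peak was also lower in XistΔ/Δ, as given above.

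A few members had their widest peak away from the main start. Rpl24 had its widest peak (2396, 2577 and 2511 bp) at 7864.5, 7795 and 7750 bp downstream of the main start in WT replicates 1 and 2 and XistΔ/Δ replicate 2. Those peaks lay beyond the annotated end of the gene, though within 3 kb of one of its starts. The peak of Rpl24 nearest to the main start measured 1067, 1587, 893 and 2181 bp. The widest peak of Rpl23a was 4778 bp downstream in WT replicate 2 and 5290.5 bp downstream in XistΔ/Δ replicate 1, that of Rpl7a 5598.5 bp downstream in WT replicate 2, that of Rpl28 at -3510.5 bp in WT replicate 1 and that of Rpl35 at -2444 and -2505.5 bp in the XistΔ/Δ libraries. The distant peaks of Rpl23a and Rpl7a likewise lay beyond the annotated end of the gene. In all 5 genes named here a peak lay within 1 kb of the main start as well.

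By the mean over the 4 libraries, the peaks nearest to the start of Rpl18 and Rpl41 had the midpoints farthest into the gene, at 965 and 747 bp. By library they were at +527, +1526, +372 and +1436.5 bp in Rpl18 and at +947, +897, +291 and +852 bp in Rpl41. In XistΔ/Δ replicate 1 those of Rpl35 (+561 bp) and Rpl30 (+559 bp) lay farther in. Of the members with a peak in all 4 libraries, Rpl27a had the mean farthest in the other direction, with midpoints at -318, -332.5, -97 and -481.5 bp.

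Width percentiles did not separate the genotypes. The mean of the library medians was 67.8 ± 4.03 (SD, n = 2) for WT, against 70.5 ± 3.23 (SD, n = 2) for XistΔ/Δ, a difference of 2.68 points (two-sided exact permutation test, p = 0.667), with 3.25 points in replicate 1 and 2.11 in replicate 2. With equal lists it was 0.935 points, with 1.97 in replicate 1 and -0.0958 in replicate 2. Leaving out WT replicate 1 turned it to -0.172. In bp the difference was -60.5 (two-sided exact permutation test, p = 0.667).

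Of the 75 members with a peak in all 4 libraries, 15 (20.0%) had a higher percentile in XistΔ/Δ than in WT in both replicate numbers, where 31.8% of the 7709 genes of all kinds did, and 16 (21.3%) had a lower one, where 19.9% did. The other 44 moved in opposite directions. The number of higher-ranked members depended on the rank used. By the place of the peak in the deposited list, 28 of 75 were higher-ranked (37.3%, against 35.5% of all genes). A move of at least 5 points in both was seen in 6 members in each direction (8.00%), against 12.5% of all genes for higher and 8.13% for lower values.

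Among the higher-ranked, Rps6, the small subunit protein that S6 kinase phosphorylates, had percentiles of 32.9 and 51.7 in the WT libraries and of 48.2 and 83.9 in the XistΔ/Δ libraries. Its peaks measured 759, 1148, 794 and 1872 bp, so its value in XistΔ/Δ replicate 2 stood above the other 3. Rpl31, Rps24, Rpl8 and Rpl28 were the next, with differences of 27.3, 10.6, 5.15 and 14.4 points in replicate 1 and of 10.6, 19.3, 22.6 and 7.42 points in replicate 2. Rps24 is a Diamond-Blackfan anaemia gene. Both XistΔ/Δ values were above both WT values in Rpl31, Rpl8 and Rpl28, whereas the groups overlapped in Rps6 and Rps24.

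Among the lower-ranked, Rps16 had percentiles of 47.7 and 64.0 in the WT libraries and of 29.8 and 45.1 in the XistΔ/Δ libraries, from peaks of 903, 1367, 639 and 1010 bp. Rps20 had percentiles of 62.3 and 52.1 in the WT libraries and of 44.1 and 37.3 in the XistΔ/Δ ones. In both genes the XistΔ/Δ values were below the WT values. The 3 others were Rps28, Rpl12 and Rps26, with differences of -20.3, -15.8 and -6.11 points in replicate 1 and of -6.16, -5.63 and -13.0 points in replicate 2. Their groups did not overlap either. These genes were picked by the same values, so the separation is a description. Rps26 and Rps28 are also on the Diamond-Blackfan anaemia list. Single genes were not tested, since the exact permutation test over 4 libraries allows no p-value below 0.33.

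**Figure D5:**
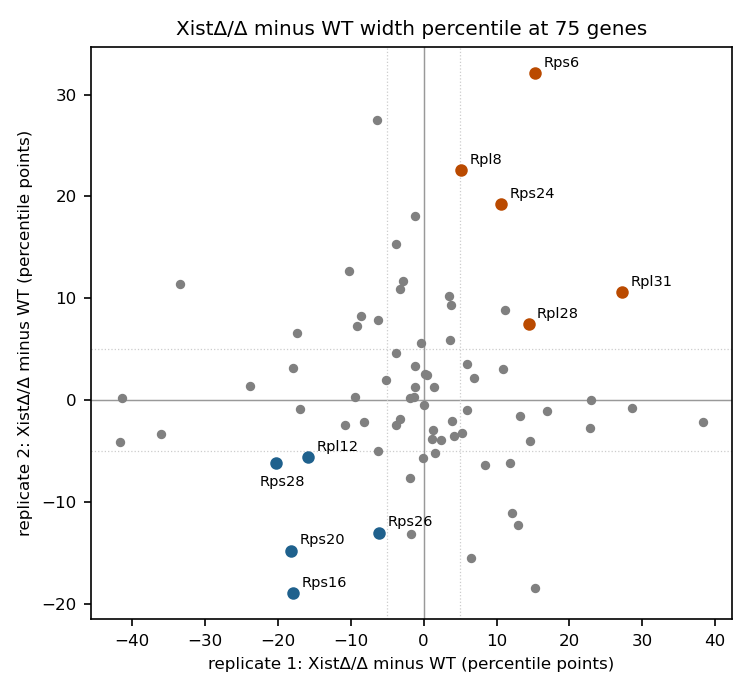
Difference in width percentile, XistΔ/Δ minus WT, in replicate 1 (horizontal axis) and replicate 2 (vertical axis) for the 75 members with a peak in all 4 libraries, with dotted lines at 5 points. The points scatter over all quadrants, and the 5 largest moves in each shared direction are named, from Rps6 at 15.3 and 32.1 points to Rps16 at -17.9 and -19.0 points.

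By role, a peak in all 4 libraries was found at 3 of 6 paralogs with the letter l in their names and at 2 of 3 stalk genes, against all small subunit members as given above. All 15 genes of the Diamond-Blackfan anaemia list had a peak in all 4 libraries, with a median of the mean percentile of 74.5 and a range of 46.0 to 84.8, against 69.3 over all such members and 64.2 over all such genes. Within it, Rps19, the gene most often mutated, had peaks of 1156, 1525, 1306 and 1431 bp. Rpl5, which with Rpl11 holds back Mdm2 and so stabilises p53, had peaks of 1539, 1860, 1486 and 1755 bp, whereas Rpl11 had narrower ones of 881, 1396, 909 and 1100 bp in each library. Of single genes outside that list, Rpsa, which also serves as a laminin receptor, had peaks of 1054, 1429, 914 and 1437 bp, and Rps27a, made as a fusion with ubiquitin, had peaks of 944, 1520, 771 and 1658 bp.

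By subunit, the median of the mean percentile was 70.3 in the large and 69.3 in the small one. Members with a snoRNA gene inside them on the same strand had a peak in all 4 libraries in 28 of 28 cases with a median of 72.8, and those without in 47 of 51 with a median of 63.4. Members with the start of another gene within 1 kb upstream on the other strand, a grouping made after the values were seen, had a peak in all 4 libraries in 18 of 18 cases with a median of 75.3, and the others in 57 of 61 with a median of 65.2. Where such a start lies close, 1 peak can cover both promoters and its width cannot be divided between them. Members with such a start include Rpl18 beside Sphk2 and Rpl4 beside Zwilch. In Rpl18 the widest peak reached farther into the gene than upstream in every library. Its upstream edges were at -521, -598, -452 and -696 bp and its downstream edges at +1575, +3650, +1196 and +3569 bp (WT, then XistΔ/Δ). What part a neighbouring start had in the widths was not tested.

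Genes that work with the members gave a like picture. Ribosome genes left out by the rule (among them Fau, Rack1, Rpl36al and, on the X chromosome, Rpl10, Rpl36a, Rpl39 and Rps4x) had a peak in all 4 libraries in 8 of 8 cases, with a median of the mean percentile of 77.5 and a range from 23.1 for Rps4x to 90.9 for Rpl36al. Of 10 other genes with terminal oligopyrimidine mRNAs, all 10 had such peaks, with a median of 74.9. Hnrnpa1, an RNA-binding protein, and Eef1a1, an elongation factor, were the highest of them with 96.2 and 95.8. Of 18 genes for ribosome assembly and RNA polymerase I, 16 had such peaks with a median of 68.7. Ubtf, the activator of ribosomal DNA, was the highest with 99.5, and Bms1 (3 libraries) and Rrs1 (1 library) fell short. The 37.1% of all genes with such peaks includes genes that are silent in blood cells, and how many was not measured here.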

How the data were processed

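The authors trimmed reads with Trim Galore, aligned them to mm10 with Bowtie2 2.3.5.1, removed reads of low mapping quality (SAMtools 1.10) and duplicates (Picard 2.0.1), and called peaks per library with HOMER 4.9.1 (versions per the labels). Peaks were joined into regions of variable width, with no input library named in the file headers. The deposited lists give each peak's position and a score that is 1 in every row and was not used. Width percentiles were computed among peaks within 3 kb of any GENCODE M21 start (Python 3.11.15, pandas 2.3.3, pysam 0.24.0). The code recovered simulated peaks placed at known positions. Members and lists were chosen with earlier results of these data known. Named genes were those without a peak in some library, the 8 highest and 8 lowest by percentile, up to 5 in each direction between genotypes (at least 5 points in both replicate numbers), the 5 farthest upstream and downstream, and a fixed set of known genes. Genotypes were compared with two-sided exact permutation tests over the 4 libraries. Tag-directory names in the headers number replicates otherwise than the labels, which were followed. Values of a few genes are not reported here.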

Additional observations from a re-analysis of the deposited data

How the results depend on the processing

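The number of members with a peak in all 4 libraries was 75 or 76 under every alternative but reciprocal overlap of at least 50% (62). The replicate block exchanged genotypes only within a replicate number, by shared numbers that the headers do not explain. It changes which exchanges are counted and cannot move the differences themselves. These are 0 for members with a peak, 2.68 percentile points, -60.5 bp in width, 0 for starts inside a peak and -70.3 bp in position. The smallest exact permutation p of the block is 0.5, so no call could change. Leaving out 1 library gave differences of -1 to 1 members with a peak, -0.172 to 5.53 percentile points (reversed without WT replicate 1), -292.5 to 171.5 bp in width (reversed at 123.5 without WT replicate 2 and at 171.5 without XistΔ/Δ replicate 1), -0.5 to 0.5 members with the start inside a peak and -97.5 to -43 bp in position. Summed width ranked among genes with a peak reversed the percentile difference to -0.835. The cause was not tested. Higher-ranked members numbered 28 by place in the list, and 6 with at least 5 points, as did lower-ranked ones. With 1 replicate number alone, 37 were higher in either and 38 lower in either. The longer YY1 core left 10 of 18 members, by its construction. With equal lists of 9553 peaks the percentile difference fell to 0.935 and that of replicate 2 alone turned from 2.11 to -0.0958. Windows of 1 kb or the main start only kept the direction of the percentile and width differences and moved that in members with a peak by at most 0.5. Depth goes with replicate number, and their parts cannot be told apart.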

Other observations

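Ribosomal protein genes have many processed copies, and reads of high mapping quality were kept, so the annotated pseudogenes named after members were examined. A peak lay within 3 kb of a start of 10 and 14 of 254 autosomal pseudogenes in WT replicates 1 and 2 and of 11 and 16 in XistΔ/Δ replicates 1 and 2. That is 3.94% to 6.30%, against 40.7% to 50.3% of autosomal protein-coding genes. The share over other pseudogenes is not given here, so whether this is low for a pseudogene cannot be told. Of the 216 that were more than 3 kb from the starts of other genes, 3, 4, 4 and 5 had a peak in the same order (1.39% to 2.31%). Most peaks lie near a start (8527 of 9553 in WT replicate 1), so that choice by itself favours a low share. Among the 75 members with a peak in all 4 libraries, 50 had at least 1 annotated pseudogene, with a maximum of 24 for Rpl31. The number of pseudogenes and the mean width percentile were not related across these genes (Spearman's rho -0.0307, Pearson's r -0.123, a description across genes that share the libraries).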
